A study of Mus musculus with 96 samples.

Results

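Fibroblasts (FBs) of the infarcted mouse heart were compared between day 7 (D7) and day 3 (D3) after infarction by small RNA sequencing, with all mature miRNAs of 8 of the 96 libraries of the series as members. The 4 D3 libraries and the 4 D7 libraries came from male C57Bl/6J mice of 12 to 14 weeks whose left anterior descending artery had been ligated permanently, and both groups had therefore been operated on, while the D0 mice had not. The RNA of 3 mice, or 2 in case of a lost sample, went into each library. FBs were the cells left after bead depletion of CD45-positive and CD144-positive cells that attached within 40 min of plating, and they are described as mostly positive for DDR2, so the fraction was defined by depletion and adhesion and was not sorted for a FB marker. Of 1978 mature miRNAs listed, 1201 had a count in at least 1 of the 8 libraries, 1336 in at least 1 of the 24 FB libraries of 6 days, and 563 passed the filter on low counts and were tested.

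FBs are the matrix-producing cells of the heart. After infarction they proliferate and migrate into the damaged muscle, and then turn to the deposition of collagens and other matrix proteins that form the scar. miRNAs are short RNAs that guide silencing complexes to messenger RNAs, mainly by pairing of the seed, which is bases 2 to 8 of the miRNA. A hairpin precursor yields a 5p and a 3p arm, either of which can be loaded, and miRNAs that share a seed share many predicted targets. The comparison of D7 with D3 was chosen to set a matrix-producing phase against a proliferative one. Neither proliferation nor matrix production was measured in these libraries.

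The sequences of the miRNAs that carried the largest changes are shown with the seed in capitals, because several of them share a seed or differ by single bases. Mature sequences were those of RefSeq (GRCm38.p6), which held 474 of the 563 tested miRNAs under the same name. The 4 largest falls among miRNAs of at least 100 CPM (read counts scaled to a common library total) had 1 seed between them. They are annotated to 3 clusters of hairpins. Reads of miR-106a-5p, the only one of these 4 from the X chromosome, may not have been separated from those of miR-17-5p.
miR-20a-5p: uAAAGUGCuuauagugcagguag
miR-17-5p: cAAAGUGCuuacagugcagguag
miR-106a-5p: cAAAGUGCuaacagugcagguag
miR-93-5p: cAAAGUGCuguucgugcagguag
The other leading falls belonged to the miR-19, miR-7 and miR-107 groups. miR-103-3p is shown because it differs from miR-107-3p by 1 base.
miR-19b-3p: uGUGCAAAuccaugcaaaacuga
miR-7a-5p: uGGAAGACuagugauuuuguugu
miR-7b-5p: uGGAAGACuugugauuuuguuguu
miR-107-3p: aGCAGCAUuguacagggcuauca
miR-103-3p: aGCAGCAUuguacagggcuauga
The 7 leading rises with a sequence had 7 different seeds. miR-148b-3p and miR-152-3p are shown beside miR-148a-3p because they have the same seed and responded differently, and the miR-434 arms because the arms of that hairpin diverged.
miR-148a-3p: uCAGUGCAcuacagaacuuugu
miR-148b-3p: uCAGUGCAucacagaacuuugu
miR-152-3p: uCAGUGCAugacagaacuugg
miR-140-3p: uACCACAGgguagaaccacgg
miR-224-5p: uAAGUCACuagugguuccguu
miR-434-5p: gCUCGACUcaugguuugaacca
miR-434-3p: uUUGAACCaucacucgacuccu
miR-127-3p: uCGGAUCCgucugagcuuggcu
miR-381-3p: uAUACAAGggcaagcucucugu
miR-195a-3p: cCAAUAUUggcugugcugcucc
The miR-29 and the miR-99/100 groups are shown because their members were among the most abundant miRNAs that changed.
miR-29a-3p: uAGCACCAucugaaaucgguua
miR-29c-3p: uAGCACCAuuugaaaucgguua
miR-99a-5p: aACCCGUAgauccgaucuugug
miR-100-5p: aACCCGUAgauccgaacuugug

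Depth ranged from 3830872 to 65588543 counts assigned to mature miRNAs in the 8 libraries, with replicate 2 of D7 the shallowest and replicate 3 of D7 the deepest. Levels are given as CPM, read counts scaled to a common total of mature miRNA counts, and fold changes as log2 fold changes after TMM scaling from an edgeR quasi-likelihood fit of the 24 FB libraries with Benjamini-Hochberg adjustment over the 563 miRNAs. Distances were taken for each pair of libraries over the 500 of the 563 miRNAs that differed most between them. By these distances, each of the 8 libraries was nearest to another library of its own day. The counts come from pooled RNA, so a change in the share of a cell type and a change in its RNA per cell cannot be told apart. The methods describe the replicates as biological in one place and technical in another, and the p-values measure only the spread between these libraries. In its total RNA data, not used here, the study left out 2 D3 FB replicates as outliers without giving their numbers. Every D3 small RNA library was kept here.

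From D3 to D7, 165 of the 563 miRNAs changed at an adjusted p under 0.05, which is 29.3%, with 77 higher (13.7%) and 88 lower (15.6%). Over all 563, the median log2 fold change was -0.02. In 122 miRNAs (21.7%) the change passed the test and the CPM values of the 2 days did not overlap. Among the 157 tested miRNAs that averaged 100 CPM or more, 34 were higher and 35 lower, and 53 of these 69 did not overlap between days. With library size as the only scaling, 58 were higher and 102 lower, and the median of all tested miRNAs was -0.12.

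The largest falls among miRNAs of at least 100 CPM were in the miR-17-92 cluster and its paralogs, miR-106a-363 and miR-106b-25, which are known to be driven by Myc and E2F factors and to promote proliferation. miR-20a-5p had 2603, 2679, 1591 and 1280.2 CPM in the 4 D3 libraries and 245, 196, 268 and 247 CPM in the 4 D7 libraries. Every D7 library lay far below every D3 library, and the D7 libraries lay close together while the D3 libraries were spread out, with replicates 1 and 2 above 3 and 4. The log2 fold change was -2.98 (SE 0.33, adjusted p = 2.86e-07). miR-17-5p had 942, 982, 550.2 and 379 CPM at D3 and 98.3, 82, 89.1 and 89.8 CPM at D7, again without overlap, with a log2 fold change of -2.87 (SE 0.31, adjusted p = 2.86e-07). miR-106a-5p, encoded on the X chromosome, fell by 2.86 on the log2 scale from a mean of 604 ± 256 to 76.4 ± 5.48 CPM (SD, n = 4 libraries a day). Its sequence differs from miR-17-5p by 1 base, and its counts were 0.836 to 0.861 times those of miR-17-5p in all 8 libraries, so reads of the pair may not have been separated and the pair is uncertain as 2 measurements.

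miR-93-5p, from the Mcm7 gene, had 1241, 1459, 775 and 599 CPM at D3 and 263, 222, 238 and 251 CPM at D7. The days did not overlap, and the log2 fold change was -1.95 (SE 0.27, adjusted p = 1.05e-05). miR-19b-3p, another member of the cluster, had 676, 386, 357 and 346 CPM at D3, where replicate 1 was the highest, and 175, 159, 216 and 145 CPM at D7. Its log2 fold change was -1.23 (SE 0.28, adjusted p = 0.00171). Of the 28 listed arms of these clusters 17 were tested, and 15 of them were lower and none higher, with a median log2 fold change of -1.23. Both arms of miR-18a fell, and the rarer 3p arm of miR-17 fell by 1.88 on the log2 scale from 12.5 ± 4.9 to 2.91 ± 1.27 CPM. The smallest of the falls that passed was in miR-25-3p, the most abundant member, with 3057 ± 455 and 2109 ± 117 CPM and a log2 fold change of -0.44 (SE 0.15, adjusted p = 0.0287). Its call was lost in 5 of the 8 fits that left out 1 library (D3 replicate 2 or 4, or D7 replicate 1, 3 or 4, adjusted p 0.0527 to 0.0696). Over those 8 fits the number of lower members was 12 to 15, lowest without D7 replicate 1. The 2 tested members that did not pass were miR-25-5p and miR-92a-1-5p, both under 5 CPM at each day.

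The 6 tested miRNAs with the seed AAAGUGC, which are miR-17-5p, miR-20a-5p, miR-20b-5p, miR-93-5p, miR-106a-5p and miR-106b-5p, were all lower at D7, with a median log2 fold change of -2.80. The hairpins lie at 3 loci, although the reads counted for miR-106a-5p and miR-17-5p may not have been separated. That of miR-20a is at chr14:115044157-115044263 and that of miR-17 at chr14:115043671-115043754, both within an annotated exon of the long noncoding host gene Mir17hg. That of miR-106a is at chrX:52742503-52742567 between annotated genes, and that of miR-93 at chr5:138165523-138165610 on the strand of Mcm7, overlapping an exon of at least 1 transcript. Mcm7 encodes a subunit of the replicative helicase.

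Against the unoperated D0 hearts, miR-20a-5p was higher at D3, with a log2 fold change of 2.38 (adjusted p = 2.60e-06). At D7 its log2 fold change against D0 was -0.60 (adjusted p = 0.113). Its mean was 308 ± 155 CPM at D0, 1217 ± 532 at D1, 235 ± 55 at D14 and 281 ± 36.8 at D28. miR-93-5p had log2 fold changes against D0 of 1.44 at D3 (adjusted p = 9.48e-05) and -0.51 at D7 (adjusted p = 0.117). miR-19b-3p was 0.44 at D3 (adjusted p = 0.222) and -0.80 at D7 (adjusted p = 0.0228) on the same scale. These values share the D3 and D7 libraries with the main comparison and give the place of the 2 days in the time course. All 4 D0 libraries were used here, although the study's methods leave out a D0 FB library as an outlier without giving its number. Without D0 replicate 2, the shallowest D0 library, miR-20a-5p and miR-93-5p were called lower at D7 than at D0, with log2 fold changes of -0.78 (adjusted p = 0.0272) and -0.65 (adjusted p = 0.0363).

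**Figure D1:**
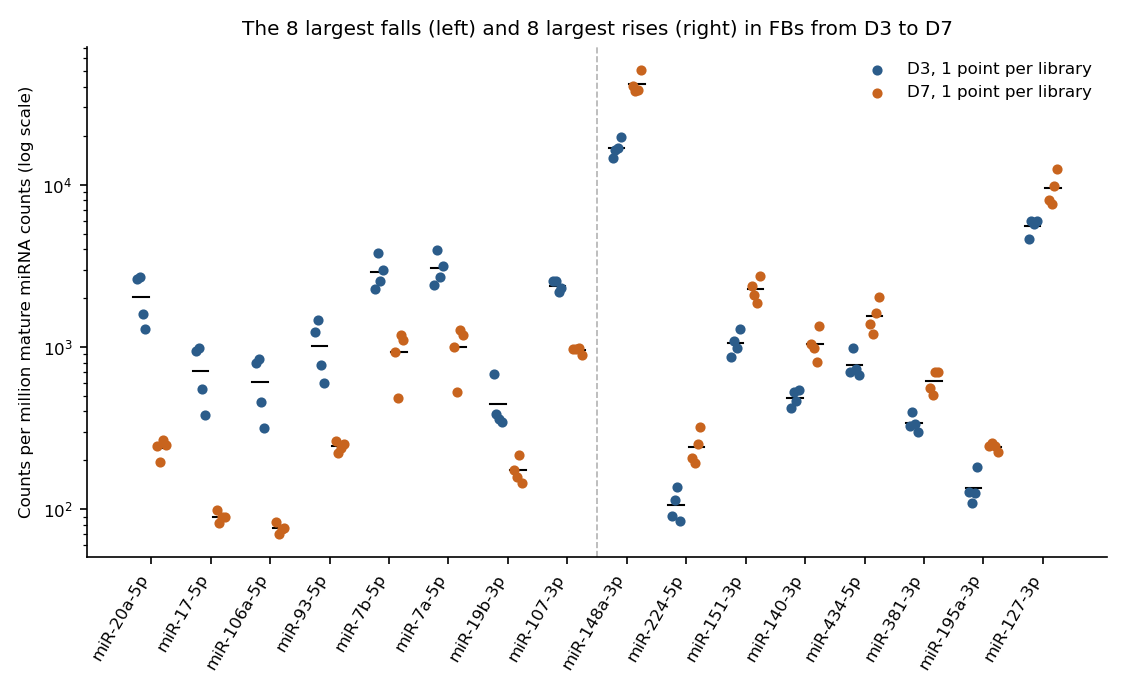
CPM on a log axis of the 8 miRNAs that fell most and the 8 that rose most at 100 CPM or more and without overlap between days, with 1 point per library and a bar at the mean. The AAAGUGC miRNAs at the far left are spread out at D3 and lie together at D7.

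miR-7, a family known for repressing growth factor receptor signalling and for binding to the circular RNA Cdr1as, showed the next largest fall. miR-7a-5p had 2399, 3944, 2702 and 3168 CPM at D3 and 994, 525, 1279 and 1191 CPM at D7. The days did not overlap, and D7 replicate 2, the shallowest library, was the lowest of all. The log2 fold change was -1.52 (SE 0.23, adjusted p = 2.81e-05), and the values of miR-7b-5p, 0.924 to 0.958 times those of miR-7a-5p in each library and 1 base different within the length they share, cannot be taken as separate. The 3p arm miR-7a-1-3p fell too, from 7.56 ± 1.42 to 3.25 ± 0.511 CPM with a log2 fold change of -1.10 (SE 0.24, adjusted p = 0.00118). All 3 tested arms of the family were lower. miR-7a-5p is made from hairpins in an intron of Hnrnpk on chromosome 13 and between genes on chromosome 7. It was still above D0 at D7, with log2 fold changes against D0 of 2.29 at D3 (adjusted p = 7.01e-08) and 0.76 at D7 (adjusted p = 0.00881).

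miR-107-3p, encoded in an intron of the pantothenate kinase gene Pank1, had 2543, 2539.8, 2187 and 2292 CPM at D3 and 966, 972, 979 and 890.2 CPM at D7. Both days were tight and well apart, and the log2 fold change was -1.22 (SE 0.19, adjusted p = 2.81e-05). miR-103-3p, from introns of Pank2 and Pank3 and named here only for its sequence, had a log2 fold change of -1.19 (SE 0.18, adjusted p = 2.81e-05), with miR-107-3p counts 0.801 to 0.854 times its own.

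The miR-29 family, which represses collagens, elastin and other matrix genes, was lower at D7 in its abundant arms. miR-29a-3p had 10912, 5473, 5972 and 5481 CPM at D3 and 2519, 3469, 4428 and 2541 CPM at D7. The days did not overlap, but D3 replicate 1 stood above the other 3 D3 libraries. The log2 fold change was -0.998 (SE 0.28, adjusted p = 0.00941), and without D3 replicate 1 it was -0.71, adjusted p = 0.0753, so the call rests on that library. miR-29c-3p, 1 base different, had a log2 fold change of -1.05 (SE 0.30, adjusted p = 0.00994) and lost its call without the same library (adjusted p = 0.0737). Its counts were 0.746 to 0.818 times those of miR-29a-3p, so reads of the pair may not have been separated. miR-29b-3p, with the same seed, had 123 ± 98.1 CPM at D3 and 96.6 ± 27.7 CPM at D7, a difference within the spread of the libraries (log2 fold change -0.22, SE 0.47, adjusted p = 0.752). Of 7 arms tested 4 were lower and none higher (median -1.05), and 1 was lower without D3 replicate 1. Against D0, miR-29a-3p had log2 fold changes of -0.53 at D3 (adjusted p = 0.14) and -1.53 at D7 (adjusted p = 1.36e-04), and without D0 replicate 2 the first was -0.74 (adjusted p = 0.0263).

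The miR-15/16 family, which represses cyclins and other cell-cycle genes, was also lower in part. miR-16-5p had 1481, 1160.0, 1015 and 1399 CPM at D3 and 641, 755, 807 and 640.4 CPM at D7, without overlap, and a log2 fold change of -0.73 (SE 0.18, adjusted p = 0.00272). miR-497a-5p fell from 496 ± 186 to 204 ± 30 CPM (log2 fold change -1.17, SE 0.25, adjusted p = 8.66e-04). miR-15b-5p fell from 133 ± 35.5 to 46.1 ± 4.99 CPM (log2 fold change -1.42, SE 0.23, adjusted p = 6.39e-05). Of 10 arms tested 5 were lower and 1 higher. The one that rose was miR-195a-3p, with 128, 108, 126 and 181 CPM at D3 and 244, 256, 246 and 225 CPM at D7 and a log2 fold change of 0.93 (SE 0.19, adjusted p = 5.72e-04). Its partner arm miR-195a-5p, which carries the family seed, had 729 ± 105 and 535 ± 113 CPM (log2 fold change -0.35, SE 0.18, adjusted p = 0.147).

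The miRNAs used as FB markers were abundant on both days. miR-199a-3p and miR-199b-3p have the same sequence and identical counts, and had 63338, 56404, 60008 and 44356 CPM at D3 and 32186, 39709, 37538 and 32818 CPM at D7. They were among the 5 most abundant miRNAs and fell without overlap, with a log2 fold change of -0.55 (SE 0.14, adjusted p = 0.00365). The other arms did not pass, with 19784 ± 4219.6 and 17364 ± 1844 CPM for miR-199a-5p and 586 ± 59.2 and 539.9 ± 92.1 CPM for miR-214-3p. miR-21a-5p, long known to rise in FBs of the failing heart, had 64804, 61134, 51854 and 37774 CPM at D3 and 35912, 30049, 40044 and 42875 CPM at D7, with overlap and a log2 fold change of -0.43 (SE 0.24, adjusted p = 0.18). Its mean at D0 was 11708 ± 3863 CPM, so it was high on both days.

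Among the remaining falls, miR-221-3p, which represses the cell-cycle inhibitor p27Kip1, had 991, 1082, 887 and 603 CPM at D3 and 442, 437, 376 and 397 CPM at D7 (log2 fold change -0.999, SE 0.18, adjusted p = 1.24e-04). miR-210-3p, a target of the hypoxia-inducible factor, had 165, 109.5, 77.9 and 49.2 CPM at D3, where the libraries were spread out, and 40.3, 37.6, 47 and 46 CPM at D7 (log2 fold change -1.11, SE 0.27, adjusted p = 0.00266). miR-23a-3p fell from 4237 ± 617 to 2298 ± 276 CPM (log2 fold change -0.79, SE 0.14, adjusted p = 1.78e-04), while its cluster partner miR-27a-3p had 23800.0 ± 1813 and 26578 ± 2239.7 CPM and did not pass (adjusted p = 0.109).

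The largest rise among abundant miRNAs was in miR-148a-3p, whose family is known to target the DNA methyltransferase Dnmt1. It had 14667, 16428, 16819.5 and 19544 CPM in the D3 libraries and 40394, 37553, 38108 and 50802 CPM in the D7 libraries. Every D7 library lay far above the highest D3 library, and the log2 fold change was 1.41 (SE 0.15, adjusted p = 2.86e-07). The 5p arm rose as well, from 36.4 ± 3.69 to 60.5 ± 12.1 CPM (log2 fold change 0.84, SE 0.21, adjusted p = 0.00272). The relatives with the same seed did not pass. miR-152-3p had 6528 ± 643 CPM at D3 and 5189 ± 302 CPM at D7 with a log2 fold change of -0.23 (SE 0.14, adjusted p = 0.238), and miR-148b-3p had 1148 ± 159 and 1235 ± 59.6 CPM (log2 fold change 0.20, SE 0.16, adjusted p = 0.353). The miR-148a hairpin lies at chr6:51269812-51269910 between annotated genes, while those of miR-148b and miR-152 lie in introns of the coatomer genes Copz1 and Copz2. The log2 fold changes of miR-148a-3p against D0 were 0.06 at D3 (adjusted p = 0.76) and 1.47 at D7 (adjusted p = 4.49e-08). Its mean was 33824 ± 3331 CPM at D14 and 18009 ± 3497 CPM at D28.

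**Figure D2:**
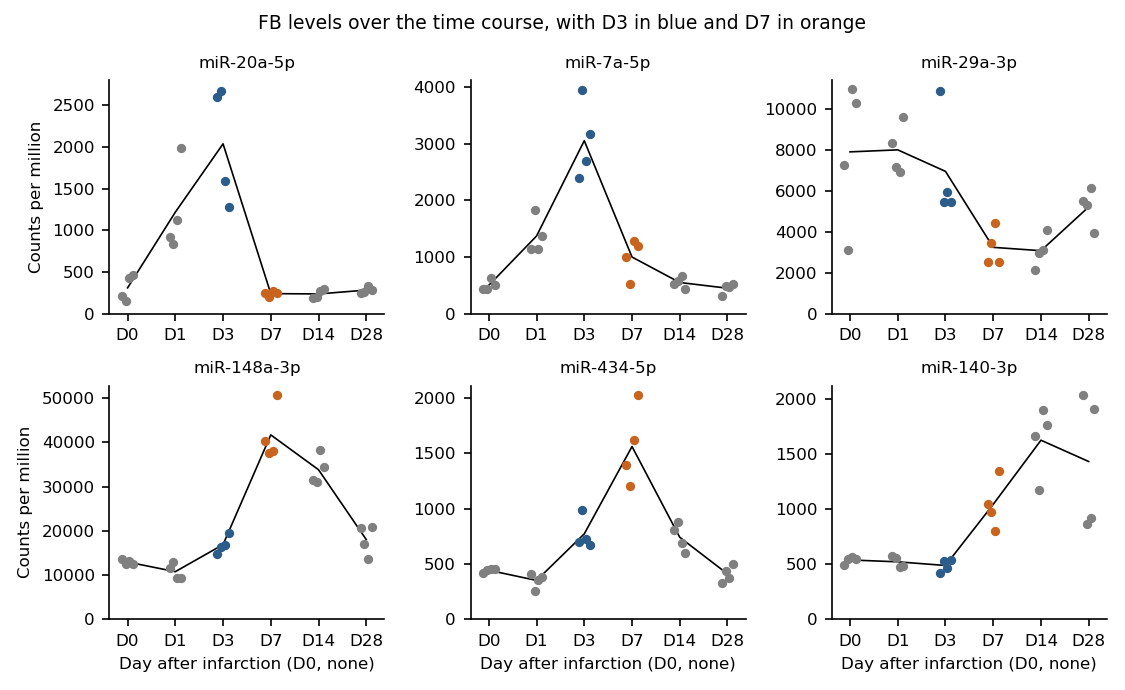
CPM of 6 miRNAs in FBs at D0, D1, D3, D7, D14 and D28, with 1 point per library, a line through the means, D3 in blue and D7 in orange. miR-20a-5p and miR-7a-5p have their highest mean at D3, miR-148a-3p and miR-434-5p at D7, and miR-140-3p at D14.

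miR-140-3p, best known from cartilage and lying within Wwp2 (chr8:107551244-107551313, overlapping an annotated exon), had 417, 525, 467 and 540.0 CPM at D3 and 1049, 978, 804 and 1342 CPM at D7. The days did not overlap, and the log2 fold change was 1.202 (SE 0.23, adjusted p = 3.67e-04). Its mean was 1626 ± 314 CPM at D14. miR-140-5p had 426, 439, 333 and 229 CPM at D3 and 765, 475, 407 and 723 CPM at D7, which overlapped (log2 fold change 0.85, SE 0.32, adjusted p = 0.0463), and its call was lost without D3 replicate 3 or 4 or D7 replicate 1 or 4 (adjusted p 0.0806 to 0.15). miR-151-3p had 867, 1089, 980.3 and 1293 CPM at D3 and 2371, 2102, 1876 and 2744 CPM at D7, without overlap (log2 fold change 1.21, SE 0.22, adjusted p = 1.42e-04), and its 5p arm had 239 ± 104 and 340.1 ± 43.7 CPM and did not pass (adjusted p = 0.145). miR-224-5p, from an intron of Gabre on the X chromosome, had 90.8, 114, 136 and 84.8 CPM at D3 and 207, 193, 250.3 and 319.6 CPM at D7 (log2 fold change 1.28, SE 0.21, adjusted p = 7.02e-05).

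The imprinted Dlk1-Dio3 region of chromosome 12 encodes a large set of miRNAs made from the maternal chromosome, which are abundant in the embryo. Of 109 listed arms 73 were tested, of which 17 were higher, 3 lower and 53 not past the threshold, with a median log2 fold change of 0.07. The number higher was 12 to 22 over the fits that left out 1 library, lowest without D7 replicate 4, and the number lower 1 to 9, fewest without D3 replicate 1. These counts are of FBs alone, and members that also rose in ECs or HCs are given with those cells below. The counts are given by arm as a description. Of 31 tested 5p arms 9 were higher and none lower (median 0.38), and of 42 tested 3p arms 8 were higher and 3 lower (median 0.01), beside 45 higher and 31 lower of all 259 tested 5p arms and 30 higher and 51 lower of all 275 tested 3p arms. miR-127-3p, encoded opposite to Rtl1, had 4628, 5963, 5703 and 5945 CPM at D3 and 8021, 7653, 9771 and 12533 CPM at D7 (log2 fold change 0.87, SE 0.17, adjusted p = 3.46e-04). miR-434-5p, also opposite to Rtl1, had 701, 987, 727 and 669 CPM at D3 and 1392, 1204, 1622 and 2023 CPM at D7 (log2 fold change 1.12, SE 0.19, adjusted p = 8.09e-05). Neither overlapped between days. miR-434-3p had 372, 492, 388 and 198 CPM at D3 and 304, 295, 346 and 397 CPM at D7, with overlap and a log2 fold change of -0.01 (SE 0.19, adjusted p = 0.984).

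miR-381-3p had 326, 397, 333 and 300.1 CPM at D3 and 555, 507, 702 and 702 CPM at D7, without overlap (log2 fold change 0.96, SE 0.20, adjusted p = 8.34e-04). Among the other members that rose, miR-379-5p went from 2139 ± 563 to 4059.9 ± 1351 CPM with overlap (log2 fold change 1.02, SE 0.20, adjusted p = 4.67e-04), and miR-411-5p from 760.2 ± 103 to 1084 ± 169.8 CPM without overlap (log2 fold change 0.61, SE 0.17, adjusted p = 0.00625). The largest rise of the cluster was in a rare arm, miR-666-5p, at 4.63, 7.12, 6.11 and 8.07 CPM at D3 and 21.1, 12.3, 20.4 and 24.9 CPM at D7 (log2 fold change 1.71, SE 0.26, adjusted p = 3.00e-05). The largest fall was in miR-154-3p, from 13.2 ± 3.81 to 4.58 ± 1.42 CPM (log2 fold change -1.36, SE 0.27, adjusted p = 5.13e-04). The log2 fold changes of miR-434-5p against D0 were 0.48 at D3 (adjusted p = 0.0428) and 1.59 at D7 (adjusted p = 4.80e-07), and its D28 mean of 409 ± 70.9 CPM lay beside 442 ± 19 CPM at D0.

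miR-99a-5p and miR-100-5p, which are known to repress mTOR and the IGF1 receptor, were among the most abundant miRNAs that rose. miR-99a-5p had 31182, 32860.4, 33219 and 40389.6 CPM at D3 and 53933, 66016, 53441 and 52810.5 CPM at D7, without overlap (log2 fold change 0.82, SE 0.15, adjusted p = 2.50e-04). miR-100-5p, 1 base different and with a count ratio of 1.07 to 1.12 for miR-99a-5p to miR-100-5p, had a log2 fold change of 0.77 (SE 0.15, adjusted p = 4.67e-04). Against D0, miR-99a-5p had log2 fold changes of -1.01 at D3 (adjusted p = 1.08e-05) and -0.19 at D7 (adjusted p = 0.323). Of 10 tested members of the miR-99, miR-100 and miR-125 group 5 were higher and none lower, and 3 to 5 were higher when 1 library was left out, fewest without D3 replicate 1 or D7 replicate 4. miR-125b-5p, which shares precursor transcripts with them, had 21898 ± 1186 CPM at D3 and 17294 ± 2416 CPM at D7 and did not pass (adjusted p = 0.274).

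Of 4 tested arms of miR-143 and miR-145, 1 was higher and 2 were lower. miR-143-3p, known from smooth muscle and other contractile cells, had 17996, 17546, 20052 and 23725 CPM at D3 and 28062, 27200.3, 31466 and 35084 CPM at D7, without overlap (log2 fold change 0.71, SE 0.13, adjusted p = 1.42e-04). miR-145a-5p, from the same cluster, had 1163, 929, 1189 and 1665 CPM at D3 and 649.6, 908, 560.0 and 695 CPM at D7 (log2 fold change -0.71, SE 0.21, adjusted p = 0.0135), a call lost without D3 replicate 4 (adjusted p = 0.0696) or D7 replicate 3 (adjusted p = 0.0566). miR-10a-5p and miR-10b-5p, from the Hox clusters and 1 base different, rose with log2 fold changes of 0.91 (SE 0.22, adjusted p = 0.00272) and 0.91 (SE 0.21, adjusted p = 0.00171), although the days overlapped. The counts of miR-10b-5p were 0.915 to 0.976 times those of miR-10a-5p, so reads of this pair may not have been separated.

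The 4 most abundant miRNAs did not pass the test. let-7a-5p had 70218, 79456, 82659.6 and 78502 CPM at D3 and 81684, 77199, 81566 and 75805 CPM at D7 (log2 fold change 0.12, SE 0.11, adjusted p = 0.423). let-7f-5p, let-7c-5p and miR-26a-5p had log2 fold changes of 0.09, 0.18 and 0.19, with adjusted p of 0.595, 0.275 and 0.238. The let-7 family is linked to differentiation, and of its 21 tested arms 1 was lower, miR-98-3p, at under 4 CPM, and it lost its call in 7 of the 8 fits that left out 1 library, all but the one without D3 replicate 4 (adjusted p 0.06 to 0.145). The other 20 arms did not pass.

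In the other lists most of the calls were lost without 1 library or another. Their counts are a description, beside 29.3% called over all 563 tested miRNAs (13.7% higher and 15.6% lower). The miR-30 family had 2 higher and 1 lower of 11, and none higher with library size as the only scaling. miR-30b-5p fell from 726 ± 178 to 307 ± 67.5 CPM (log2 fold change -1.13, SE 0.23, adjusted p = 4.91e-04) in every such fit, while miR-30a-3p and miR-30e-3p lost their calls without D3 replicate 1 or 2 or D7 replicate 1 or 2. The abundant miR-30a-5p and miR-30d-5p did not pass (adjusted p = 0.75 and 0.986). The miR-23, miR-27 and miR-24 clusters had 2 lower, miR-23a-3p and miR-23b-3p, and 1 higher of 11, miR-24-2-5p, a call lost without D3 replicate 2 or 3 or D7 replicate 1 and with library size as the only scaling. That scaling also left 1 higher of the 4 tested arms of miR-140 and miR-455, from 2, and gave 2 lower let-7 arms, from 1, and 1 lower miR-181 arm, from 0.

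The X-linked miR-322 cluster had 3 higher of 12, miR-351-5p, miR-450a-5p and miR-503-3p, and none higher without D3 replicate 2. Without D7 replicate 4 these 3 lost their calls too (adjusted p = 0.296, 0.0734 and 0.308), and 1 of the list was higher with library size as the only scaling. In the miR-34 family, known as a p53 target, miR-34c-5p was lower, of 5 tested, and lost its call without D3 replicate 1 or 2 or D7 replicate 1, 2 or 3. In the inflammation-induced miR-155, miR-146 and miR-147 group miR-146b-5p was higher, of 7 tested, and lost its call without D3 replicate 1 or 2 or D7 replicate 1 or 4. miR-155-5p had 62.7 ± 8.13 CPM at D3 and 49.6 ± 19.5 CPM at D7, beside 6.43 ± 2.4 CPM at D0, and did not pass between D7 and D3 (adjusted p = 0.531).

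In the miR-181 family miR-181a-2-3p was higher, of 9 tested, and lost its call without D3 replicate 1 or 2 or D7 replicate 1 or 4. In the miR-130 and miR-301 family miR-130a-3p was lower, of 7 tested, and lost its call without D3 replicate 1 or D7 replicate 1 or 3. miR-212-5p was higher in every such fit, and miR-132-3p of the same cluster was lower, a call lost without D7 replicate 1, 2 or 3, with 4 arms tested. miR-222-3p, the partner of miR-221-3p, was lower and lost its call in 6 of the 8 fits, all but those without D3 replicate 4 or D7 replicate 1. In the group of miR-140 and miR-455, miR-455-3p was lower, and lost its call without D3 replicate 1, 2 or 3 or D7 replicate 1 or 3. Of 5 tested arms of the miR-378 family none passed, and 0 had an unadjusted p under 0.05 in the edgeR test (the lowest was 0.105).

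The ratio of the 5p to the 3p arm of a hairpin, which needs no scaling between libraries, was tested with limma for 147 hairpins with enough counts on each arm. It changed in 60 (40.8%), rising in 37 and falling in 23. Not all of these are separate, since miR-199a and miR-199b, both called as rises, have identical 3p counts. The counts of miR-126a-5p and miR-126b-3p were nearly the same, and miR-126a was called as a fall (-0.88) and miR-126b as a rise (0.86). The count depended on single libraries: it was 27 without D7 replicate 1, 35 without D3 replicate 1 and 38 without D7 replicate 4. The ratio of miR-485 had log2 values of -2.16, -2.27, -2.11 and -0.93 at D3 and -0.45, -0.07, -0.65 and -0.32 at D7, with D3 replicate 4 nearest to the D7 libraries, and changed by 1.49 (SE 0.26, adjusted p = 3.00e-04). Its 5p arm rose (log2 fold change 1.52, SE 0.25, adjusted p = 7.02e-05), while its 3p arm did not pass (log2 fold change -0.09, SE 0.28, adjusted p = 0.827). The arms of the next hairpin moved apart. The ratio of miR-532 was 4.88, 4.98, 5.31 and 5.37 at D3 and 6.96, 6.09, 6.38 and 6.55 at D7 on the log2 scale, a change of 1.36 (SE 0.21, adjusted p = 2.26e-04). The 5p arm rose (log2 fold change 0.59, adjusted p = 0.00629, but 0.0571 without D3 replicate 1) and the 3p arm fell (log2 fold change -0.74, adjusted p = 0.00272). The ratio of miR-379 was 2.12, 2.17, 2.33 and 3.00 at D3 and 3.74, 3.34, 3.77 and 4.05 at D7, a change of 1.32 (SE 0.21, adjusted p = 2.26e-04).

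The largest falls of the ratio were in miR-674, miR-671 and miR-30b. The ratio of miR-674 was -3.10, -3.49, -3.43 and -3.37 at D3 and -5.18, -4.91, -4.47 and -4.82 at D7 on the log2 scale, a change of -1.50 (SE 0.27, adjusted p = 4.24e-04). Its 3p arm rose by 0.82 on the log2 scale (adjusted p = 0.00436) and its 5p arm had a log2 fold change of -0.68 (adjusted p = 0.00342), so the arms of this hairpin moved in opposite directions. The ratio of miR-30b was 5.89, 4.97, 4.98 and 4.72 at D3 and 3.45, 4.02, 3.85 and 3.54 at D7, a change of -1.43 (SE 0.31, adjusted p = 0.00216). The ratio of miR-671 changed by -1.47 (SE 0.46, adjusted p = 0.0184), with as few as 6 counts on its 5p arm, and its call was lost without D3 replicate 1 (adjusted p = 0.0659), D7 replicate 1 (adjusted p = 0.0535) or D7 replicate 4 (adjusted p = 0.0504).

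**Figure D3:**
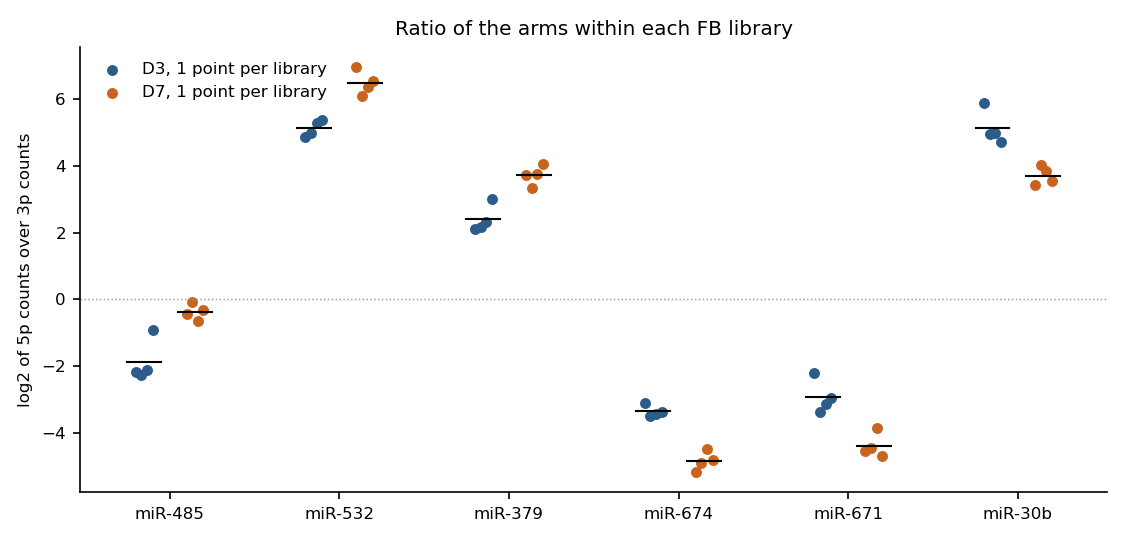
Arm ratio (log2 of 5p over 3p counts) of 6 hairpins within each FB library, with 1 point per library and a bar at the mean of each day. The first 3 hairpins are higher at D7 and the last 3 lower, and the days do not overlap in any of the 6.

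To ask which changes differed in size from those of other cells of the infarcted heart, the change in FBs was tested against that in endothelial cells (ECs) and in hematopoietic cells (HCs) at the same days, as an interaction in 1 edgeR fit of 24 libraries. Libraries of each cell type were prepared as a batch of their own, so levels cannot be told apart from batch between cell types, and the test is of the change within each. The cell types of a day were taken from the same mice, and the fit treats their libraries as separate. Of 605 miRNAs, 60 differed between FBs and ECs (9.92%) and 97 between FBs and HCs (16.0%). Here and below, a difference called higher or lower in FBs is a more positive or more negative change than in the other cell type. It is not a level, and a miRNA that rose in FBs can be lower in this sense. The FB to EC count depended on the scaling, at 136 without TMM factors (library size only) and 99 with DESeq2, and its split moved from 23 higher and 37 lower in FBs to 18 and 118, and 61 and 38. The miRNAs that differed most kept their direction and their call under both. The 97 differences from HCs were 19 higher and 78 lower in FBs, and they numbered 57 without D3 replicate 1 and 54 without D3 replicate 2. Their split was 42 higher and 65 lower with DESeq2, 21 and 48 without the filter on low counts, and 25 and 69 without TMM factors. The higher ones from HCs fell to between 7 and 12 without D3 replicate 1, 2 or 3 or D7 replicate 1, 3 or 4. From ECs, 9 were higher without D3 replicate 1 and 12 without D3 replicate 2, and 24 were lower without D3 replicate 3.

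The fall of miR-20a-5p was larger in FBs than in ECs and HCs. In ECs it had 1154 ± 244 CPM at D3 and 769.9 ± 127 CPM at D7, a log2 fold change of -0.80, and in HCs 4426 ± 1213 and 3419 ± 1137 CPM, a log2 fold change of -0.07. The change in FBs, -2.83 in this fit, differed from that in ECs by -2.03 (SE 0.32, adjusted p = 1.11e-04) and from that in HCs by -2.76 (SE 0.32, adjusted p = 1.84e-06). By value, its mean in FBs lay between those in ECs and HCs at D3 and was the lowest of the 3 at D7. miR-17-5p differed by -1.99 (SE 0.35, adjusted p = 4.36e-04) from ECs and by -2.62 (SE 0.35, adjusted p = 1.04e-05) from HCs. miR-106a-5p, which may share its reads, differed by -1.92 (SE 0.36, adjusted p = 8.60e-04) and -2.79 (SE 0.36, adjusted p = 7.75e-06).

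miR-148a-3p rose in FBs and had log2 fold changes of -0.47 in ECs and -0.45 in HCs. The differences were 1.99 (SE 0.31, adjusted p = 1.11e-04) and 1.97 (SE 0.31, adjusted p = 1.05e-04). At D3 it had 16157 ± 3458 CPM in HCs, close to FBs, and at D7 9911 ± 1423 CPM. miR-151-3p had log2 fold changes of 1.31 in FBs and -0.15 in ECs, a difference of 1.47 (SE 0.34, adjusted p = 0.00509). miR-218-5p had 0.80 in FBs and -0.61 in ECs, a difference of 1.41 (SE 0.39, adjusted p = 0.0198). This call was lost without D3 replicate 1 (adjusted p = 0.0836) or 2 (adjusted p = 0.13). Against HCs, miR-450a-5p differed by 1.13 (SE 0.29, adjusted p = 0.00901), with log2 fold changes of 0.94 in FBs and -0.19 in HCs. It lost its call without D3 replicate 2 (adjusted p = 0.0512). miR-574-5p differed by 1.07 (SE 0.35, adjusted p = 0.037), with log2 fold changes of 0.46 in FBs and -0.62 in HCs. It lost its call in 6 of the 8 fits that left out 1 FB library (adjusted p 0.053 to 0.0658). The call was kept in those without D3 replicate 1 or D7 replicate 2.

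For miR-7a-5p neither difference passed, with a log2 fold change of -1.51 in ECs and -0.74 in HCs and adjusted p of 0.885 and 0.155 for the differences, which were 0.12 (SE 0.31) and -0.65 (SE 0.31). miR-107-3p fell in FBs and had log2 fold changes of 0.31 in ECs and 0.08 in HCs, with differences of -1.40 (SE 0.21, adjusted p = 9.12e-05) and -1.18 (SE 0.21, adjusted p = 3.15e-04). miR-199a-3p had log2 fold changes of 0.76 in ECs and 1.15 in HCs, with differences of -1.18 (SE 0.27, adjusted p = 0.00509) and -1.57 (SE 0.27, adjusted p = 3.15e-04). Members of the Dlk1-Dio3 cluster rose in these cells too. In this fit miR-127-3p had log2 fold changes of 0.99 in FBs and 2.06 in HCs, differing by -1.07 (SE 0.33, adjusted p = 0.0302). miR-411-5p had 0.75 and 1.80, differing by -1.05 (SE 0.35, adjusted p = 0.0387). miR-434-5p had 47.7 to 71.4 CPM at D3 and 86.0 to 170.8 CPM at D7 in ECs. In HCs miR-434-5p had 15.7 to 43.5 and 76.8 to 146.6 CPM. Beside these, the summed CPM of the FB markers was 7116 to 11099 at D3 and 13389 to 21573 at D7 in ECs, and 4625 to 6683 and 8536 to 12076 in HCs. The part of this rise in the differences of miR-199 and of other miRNAs most abundant in FBs was not tested. The summed cardiomyocyte markers were 107155 ± 37878 CPM at D3 and 65988 ± 18364 CPM at D7 in ECs. In HCs they were 49337 ± 11388 and 33560 ± 8688 CPM. The part of cardiomyocyte RNA in the EC and HC changes was not tested either.

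**Figure D4:**
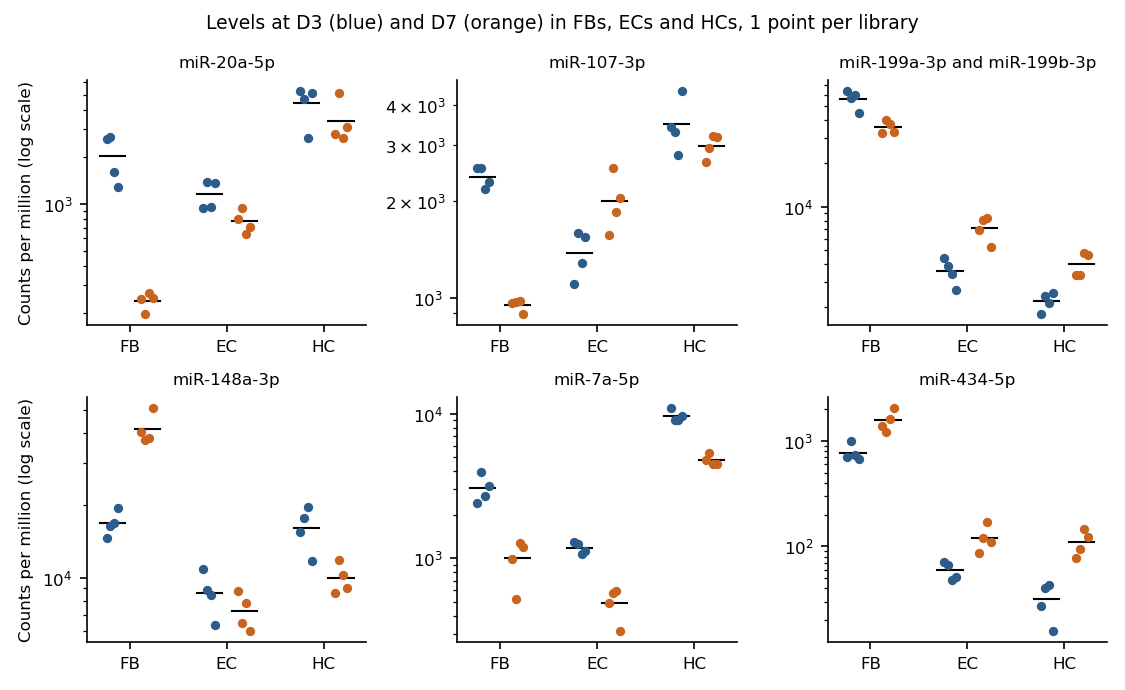
CPM on log axes of 6 miRNAs at D3 (blue) and D7 (orange) in FBs, ECs and HCs, with 1 point per library and a bar at the mean. miR-20a-5p and miR-107-3p drop in FBs to below the other cell types, miR-148a-3p rises in FBs, and the means of miR-7a-5p are lower at D7 in all 3.

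The labelled cell type and the cells that the plated fraction could also hold were checked by their marker miRNAs. The summed CPM of the FB markers miR-199a, miR-199b and miR-214 was 173666, 153001, 154664 and 117003 at D3 and 100061, 115287, 103350.0 and 98337 at D7 in FBs, above every EC and HC library. The identical counts of miR-199a-3p and miR-199b-3p enter this sum as both. Every D7 sum lay below every D3 sum (p = 0.0286 in an exact permutation test, two-sided, which can go no lower with 4 libraries a day, adjusted p = 0.0714 over 5 marker lists). The HC markers miR-223, miR-142a and miR-150 summed to 178 to 333 CPM at D3 and 100.3 to 159 CPM at D7 in FBs, beside 15472 to 25611 and 12976 to 24144 CPM in HCs, again without overlap in FBs (exact permutation p = 0.0286, adjusted p = 0.0714). The defining myeloid miR-223-3p was near 0, at 0.692 to 1.98 CPM at D3 and 0.166 to 0.522 CPM at D7. Of the 6 HC marker arms 1 passed the edgeR test, miR-150-5p, with 159 ± 54.6 and 85.7 ± 20.9 CPM, and its call was lost without D3 replicate 4 (adjusted p = 0.0951).

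The EC markers miR-126a and miR-126b summed to 26448, 26171, 26119.5 and 46331 CPM at D3 and 28887, 28906, 21895 and 28141 CPM at D7 in FBs, with D3 replicate 4 above the rest, beside 157774 to 219312 CPM in ECs at D3 (exact permutation p = 0.6). Of the 4 EC marker arms 2 fell in the edgeR test, miR-126a-5p, from 1107 ± 266 to 541 ± 34.6 CPM, and miR-126b-3p. The counts of these 2 arms were nearly the same, so they cannot be taken as separate. The most abundant arm, miR-126a-3p, had 28951 ± 9858 and 25787 ± 3347 CPM and did not pass (log2 fold change -0.07, adjusted p = 0.831). The cardiomyocyte markers summed to 2329 to 3339 CPM at D3 and 1135 to 2384 CPM at D7, nearly all of it miR-1a-3p (exact permutation p = 0.0857). The red blood cell markers summed to 3227, 6241, 1360.3 and 4978 CPM at D3 and 1523, 878, 2526 and 1217 CPM at D7 (exact permutation p = 0.0857). The identical counts of miR-486a-5p and miR-486b-5p enter this sum as both. In cardiomyocytes these markers summed to 4114 to 4253 CPM at D3 and 4957 to 5511 CPM at D7, mostly from miR-486. In FBs 2 of 7 arms were lower in the edgeR test, miR-144-5p and miR-451a. The call of miR-451a was lost without D3 replicate 1, 2 or 4 or D7 replicate 1, 2 or 4 (adjusted p 0.0741 to 0.109). The part of these cells in the changes of the other miRNAs was not tested. miR-20a-5p, which HCs also express, had a D3 mean of 2038 CPM in FBs and 4426 CPM in HCs. The D3 means of the summed HC markers were 246 CPM in FBs and 21289 CPM in HCs. The part of HCs in the FB level of miR-20a-5p was not tested.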

How the data were processed

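Total RNA of FBs was made into NEBNext small RNA libraries by the authors and sequenced on a HiSeq 2500. Reads under 18 nt were removed after trimming, and counts of mature miRBase miRNAs were made with the nf-core smrnaseq workflow. Per the labels, Trim Galore, Bowtie2 and SAMtools were used with mm10, and versions are not given in the sources used here. The deposited counts are whole reads per mature miRNA with no normalization. How reads that match several miRNAs were shared is not given, and 123 miRNAs, in 38 sets, had counts identical to another miRNA in all 24 FB libraries. The row of reads without a match, 30.6 to 40.5% of each of the 8 libraries, was left out. Hairpin tables were not used.

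Counts of the 24 FB libraries were fitted with edgeR 4.0.16 (TMM, filterByExpr by group, quasi-likelihood test, contrast of D7 minus D3) in R 4.3.3, adjusted after Benjamini-Hochberg, and called at 0.05. Using all FB days gives 1 estimate of the spread from 6 groups. Arm ratios, log2 of 5p over 3p counts with a pseudocount of 0.5, were tested with limma 3.58.1 where both arms averaged 10 counts or more. Differences from ECs and HCs were interactions in an edgeR fit of FB, EC and HC libraries of D3 and D7. Scripts were tested on simulated data. Groups and replicate numbers came from the sample titles. The mice of D3 and D7 differ, so replicate numbers pair no animals between days. The cell types of a day came from the same mice, but no source used here says that equal numbers mark the same pool, and the interaction fit treats the libraries as separate. The study's methods leave out a D0 FB library, not named, as an outlier, and all 4 were kept here. They also leave out D3 FB replicates, not named, from the total RNA data, and every D3 small RNA library was kept here. Depth of the 8 libraries was 3830872 to 65588543 counts, and arms under 1 CPM rest on few reads in the shallowest.

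The members and lists were chosen with earlier results of these data known. Named miRNAs were the 8 largest rises and falls with a mean of at least 100 CPM over the 8 libraries and no overlap between days, the 5 most abundant miRNAs, members of lists (the 2 most abundant of each, and those that passed), opposite arms, the 3 largest rises and falls of the arm ratio where both arms averaged 50 counts or more, and the 3 largest differences each way from ECs and from HCs. Others are said to be chosen otherwise where they are named. Alternatives were DESeq2 1.42.0, other scalings and filters, a replicate block, fits of the D3 and D7 libraries alone, thinned counts, and leaving out each library. A block of the replicate number within each day, and contrasts against D0 without D0 replicate 2, were added after seeing the data. Positions and sequences are of GRCm38.p6 (RefSeq), the assembly of mm10, and host genes are of GENCODE vM21.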

Additional observations from a re-analysis of the deposited data

Results flagged for a closer look

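In 66 groups of 4 libraries, 5 held 1 library far from the other 3 by Dixon's test at 95%, which chance alone does in about 1 in 20 groups. miR-19b-3p had 676 CPM in D3 replicate 1, above the other D3 libraries. miR-107-3p had 890.2 CPM in D7 replicate 4, slightly below the other 3, which lay close together. The log2 arm ratio of miR-485 was -0.93 in D3 replicate 4, toward the D7 values. The summed CPM of the EC markers was 46331 in D3 replicate 4, above the other D3 libraries, and 21895 in D7 replicate 3, below the other D7 libraries.

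The change from D3 to D7 differed between FBs and other cells by the interaction test for the miRNAs named in the report. Against ECs, the difference on the log2 scale was 1.99 for miR-148a-3p, 1.47 for miR-151-3p, 1.41 for miR-218-5p, -2.03 for miR-20a-5p, -1.99 for miR-17-5p and -1.92 for miR-106a-5p. Against HCs it was 1.97 for miR-148a-3p, 1.13 for miR-450a-5p, 1.07 for miR-574-5p, -2.79 for miR-106a-5p, -2.76 for miR-20a-5p and -2.62 for miR-17-5p.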

How the results depend on the processing

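The 16 leading miRNAs kept direction and call in all 256 refitted values. They had been chosen from the same libraries as the largest changes without overlap between days. That choice favours a stable direction and call, so the refits are not a separate test of these miRNAs. Among the 16 are pairs whose reads may not have been separated. The count of 165 changed miRNAs stayed within 1.5 times under every other setting but one: requiring a log2 fold change of at least 1 left 71 (26 higher, 45 lower). With counts thinned to the shallowest library 51 were higher. Leaving out 1 library gave 128 to 163 changed miRNAs, 27 to 57 arm ratios (18 to 37 rising, 9 to 21 falling), 43 to 81 differences from ECs (9 to 34 higher, 24 to 47 lower in FBs) and 54 to 96 from HCs (7 to 18 higher, 47 to 84 lower), from 60, 60 and 97 with all libraries. Differences from ECs numbered 136 (118 lower) without TMM factors and 99 (61 higher) with DESeq2. Those from HCs included 42 higher with DESeq2 and 48 lower without the filter on low counts. The cause was not tested. With a replicate block, 157 miRNAs (72 higher, 85 lower), 58 arm ratios and 54 and 88 differences from ECs and HCs were called. In deviations from the day mean, same-numbered D3 and D7 libraries correlated at -0.29 to -0.17, beside -0.13 to 0.26 for other numbers. These correlations cannot show whether a number marks a shared batch. A replicate block within each day over the cell types, chosen after seeing the data since these share mice, gave 59 differences from ECs and 93 from HCs, and each of the 6 and 6 named differences kept its direction and call. Same-numbered FB libraries correlated with those of ECs and HCs of their day at -0.12 to 0.19. The summed markers moved by less than the replicate spread under TMM scaling and when 1 library was left out. Depth limits the rare arms: those near 1 CPM rest on a handful of reads in D7 replicate 2.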

Other observations

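The miRNAs below are outside the lists and were chosen after their values were seen. miR-183-5p, of a cluster known from sensory organs, had 18.4, 26, 25.3 and 12.8 CPM at D3 and 52.4, 26.1, 112 and 91.7 CPM at D7, beside 1.37 ± 0.603 CPM at D0 and 4.03 ± 1.36 CPM at D28 (log2 fold change of D7 minus D3 1.87, SE 0.44, adjusted p = 0.002 by edgeR). D7 replicate 2 lay just above the highest D3 library and the other D7 libraries far above it. Its cluster partner miR-182-5p had 68.8, 104, 77.3 and 48 CPM at D3 and 120.4, 56.6, 226 and 185 CPM at D7, which overlapped (log2 fold change 1.07, SE 0.37, adjusted p = 0.0327), and lost its call without D3 replicate 1 or 4 or D7 replicate 3 or 4. miR-96-5p had 3.34, 3.06, 2.75 and 2.17 CPM at D3 and 6.96, 3.13, 10.9 and 5.23 CPM at D7 (log2 fold change 1.36, SE 0.40, adjusted p = 0.0115), and lost its call without D7 replicate 3 (adjusted p = 0.0844).

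miR-200a-3p, of a family known from epithelia, had 37.4, 20.7, 38.3 and 26.7 CPM at D3 and 11.6, 4.44, 10.9 and 12.1 CPM at D7, without overlap and beside 3.21 ± 1.35 CPM at D0 (log2 fold change of D7 minus D3 -1.52, SE 0.33, adjusted p = 8.66e-04). miR-200b-3p and miR-200c-3p had log2 fold changes of -1.43 (SE 0.29, adjusted p = 4.96e-04) and -1.33 (SE 0.30, adjusted p = 0.00171), while miR-141-3p and miR-429-3p did not pass (adjusted p = 0.0747 and 0.125). The X-linked miR-362 fell in both arms, with 158, 159.7, 120.0 and 78.8 CPM at D3 and 37.5, 21.1, 38.1 and 34.4 CPM at D7 for the 5p arm (log2 fold change -1.86, SE 0.30, adjusted p = 6.39e-05), while miR-532-5p of the same cluster rose. The largest rise at any level was in miR-582-3p, with 1.99, 2.97, 3.43 and 2.81 CPM at D3 and 10.6, 6.26, 11.8 and 15.5 CPM at D7 (log2 fold change 2.11, SE 0.31, adjusted p = 1.89e-05).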
